A study of Mus musculus with 12 samples.

Results

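The nuclear genes of the mitochondrial respiratory chain and ATP synthase were followed across 6 sorted cell populations of mouse bone marrow. Their probes were taken by gene name: every name starting with Ndufa, Ndufb, Ndufc, Ndufs, Ndufv, Uqcr, Cox4, Cox5, Cox6, Cox7, Cox8 or Atp5, plus Sdha, Sdhb, Sdhc and Sdhd, and without Cox6a2. This gave 89 genes of the 31541 gene names on the array, each read from its brightest probe. A total of 85 were kept by the filter on dim probes, and all 85 were well above background on all 12 arrays. Cox7b2, Cox8b, Cox8c and Ndufa4l2 were not kept. Cox7b2 was well above background on 2 arrays and the others on 0, so no change is given for them.

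All cells came from the marrow of female C57BL/6 mice aged 16 weeks that carried a human CD4 (hCD4) reporter under the Cebpa enhancer and promoter. The groups were hCD4+ granulocyte-monocyte progenitors (GMP), hCD4+ and hCD4- pre-pro-B cells, hCD4+ and hCD4- pro-B cells, and pre-B cells whose hCD4 status the labels do not state, with 2 arrays each. The series title speaks of a pair of mice, and nothing in the labels ties a replicate number to a mouse. The p-values thus measure only the spread between these samples, which for each gene is shared by all 6 groups. Surface hCD4 reports activity of the reporter and was not measured here against the Cebpa transcript of single cells.

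The respiratory chain hands electrons from NADH through complex I, or from succinate through complex II, to complex III and then to complex IV, where oxygen is reduced. Complexes I, III and IV pump protons, and the returning flow drives complex V, the ATP synthase. Most subunits are encoded in the nucleus and imported, while a small set is encoded by mitochondrial DNA, and lymphoid precursors are known to alternate between dividing and resting stages with different energy needs. By complex, the kept genes were 7 core and 30 accessory subunits and 4 assembly factors of complex I, 4 genes of complex II, 8 of complex III, 14 of complex IV and 15 of complex V. The name rule also took in 3 genes that encode no subunit: Atp5s (now Dmac2l), Atp5sl (now Dmac2) and Cox4nb (now Emc8).

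Levels are log2 signals relative to each array's 75th percentile, so 0 is the brightness of that percentile. They compare a transcript with the others of its array, so they carry no amount of RNA per cell. In sorted bulk samples, fewer cells of a type and less RNA per cell cannot be told apart. The arrays sat on 3 slides: GMP with hCD4- pre-pro-B, hCD4+ pre-pro-B with hCD4- pro-B, and hCD4+ pro-B with pre-B. Only those 3 pairs were compared within a slide, and in every other pair slide and group cannot be told apart. The mean 75th percentile signal was 302 on the arrays of hCD4- pre-pro-B cells, against 537 to 800 in the other groups. The median standard deviation between their replicates was 0.221, against 0.098 to 0.152. Tests with hCD4- pre-pro-B cells use the spread shared by all groups and not that of this group alone. The log2 spike-in control signal minus the 75th percentile was 4.87 to 5.12 on GMP and 7.85 to 7.93 on hCD4- pre-pro-B arrays. It was 5.63 to 5.88 on hCD4+ pre-pro-B, 5.30 to 6.04 on hCD4- pro-B and 5.59 to 6.74 on hCD4+ pro-B arrays. Pre-B arrays had 6.49 to 7.38. This difference was thus lowest in GMP and highest in hCD4- pre-pro-B cells, which had the highest and lowest respiratory medians. Its part in the results was not tested.

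The labels were set against cell type markers. The 6 GMP markers had a summed linear level of 921 to 1131 on GMP arrays, 13.8 to 33.8 on hCD4+ pre-pro-B, 2.09 to 3.54 on hCD4- pre-pro-B, 127 to 140 on hCD4+ pro-B and at most 2.69 on hCD4- pro-B and pre-B arrays. The 8 pro-B markers were all above background in both pro-B groups and in pre-B cells. Ebf1 and Pax5 were above background on no array of the pre-pro-B groups, which had all 4 of their own markers. These 4 did not mark that stage alone, as all were above background in hCD4+ pro-B cells too. Their sum was 121 to 123 in GMP, 34.0 to 34.5 in hCD4- and 35.5 to 45.8 in hCD4+ pre-pro-B cells. The 5 pre-B markers summed to 70.7 to 79.9 in pre-B cells. Their sum was 77.3 to 85.2 in hCD4- and 35.6 to 39.1 in hCD4+ pre-pro-B cells, and at most 35.2 in the other groups. All 6 mature neutrophil markers were above background on both hCD4- pro-B arrays (sum 13.8 to 24.9), against a sum of at most 3.68 elsewhere. The 4 dendritic cell markers summed to 72.5 to 74.3 in GMP, 150 to 151 in hCD4+ and 159 to 225 in hCD4- pre-pro-B cells. Their sum was 94.4 to 102 in hCD4+ pro-B, 75.8 to 79.3 in hCD4- pro-B and 116 to 129 in pre-B cells. The 4 plasma cell markers summed to 23.0 to 24.3 in GMP, 36.0 to 43.1 in hCD4+ and 51.8 to 51.9 in hCD4- pre-pro-B cells. On pro-B and pre-B arrays the plasma cell sum was at most 15.6. The part of all these markers in the results was not tested.

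Each promoter was searched for short letter patterns of factors known to bind promoters of nuclear respiratory genes, because the genes moved together. RefSeq promoters (GRCm38.p6, the 250 bases before the start) were matched for 72 of the 85 genes. The NRF1 pattern (GCGCA, any base, then GCGC), on either strand, was in 14 of the 72 (19.4%), against 8.62% of 10396 kept genes with a promoter and 4.23% of 27025 genes in the RefSeq table. The ETS pattern CCGGAAG of the GABP class was in 13 (18.1%), against 15.0% of the kept genes. The YY1 pattern (AAGATGG followed at once by CGGC) was in 1 (1.39%, against 0.529%) and the E-box CACGTG in 7 (9.72%, against 9.66%). A match is a stretch of letters and not a measured binding site, and absence says only that the letters are not in that window.

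The 14 genes with the NRF1 letters are shown as 30-base windows, 5′ to 3′ on the gene's strand, with the match in capitals. Each window is set on the first match only. Ndufb4 and Sdha each had 3 matches counted and Cox6a1 had 2. A match on the opposite strand reads GCGC, any base, then TGCGC, as in Ndufa8 and Ndufs6.
Ndufa5 (chr6:24527697-24527726, minus strand): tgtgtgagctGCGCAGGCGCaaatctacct
Ndufa8 (chr2:36049349-36049378, minus strand): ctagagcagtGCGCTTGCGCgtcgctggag
Ndufa11 (chr17:56717692-56717721, plus strand): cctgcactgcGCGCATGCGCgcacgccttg
Ndufb4 (chr16:37654540-37654569, minus strand): gagaagcagtGCGCACGCGCagaatacgcg
Ndufs5 (chr4:123718265-123718294, minus strand): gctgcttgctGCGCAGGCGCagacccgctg
Ndufs6 (chr13:73328483-73328512, minus strand): ccgccgactgctgtGCGCCTGCGCcggcac
Ndufaf4 (chr4:24897960-24897989, plus strand): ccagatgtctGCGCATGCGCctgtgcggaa
Sdha (chr13:74350319-74350348, minus strand): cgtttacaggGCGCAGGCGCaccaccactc
Sdhd (chr9:50603909-50603938, minus strand): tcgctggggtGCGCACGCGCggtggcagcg
Cox6a1 (chr5:115349101-115349130, minus strand): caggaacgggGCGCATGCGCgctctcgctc
Atp5c1 (chr2:10080433-10080462, minus strand): cgcctgagctcccGCGCACGCGCactgagt
Atp5g2 (chr15:102671070-102671099, minus strand): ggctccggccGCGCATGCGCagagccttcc
Atp5h (chr11:115420041-115420070, minus strand): gaccccgacgGCGCAGGCGCcgcgcccgcc
Atp5k (chr5:108434430-108434459, minus strand): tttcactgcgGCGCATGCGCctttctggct
These 14 include genes of complexes I, II, IV and V. In GMP against hCD4- pre-pro-B cells all 14 were called higher, with a median log2 change of 1.27. Of the 58 genes whose promoter lacks the letters, 54 were called higher, with a median of 1.20. Among all kept genes 34.7% were called higher in this pair. The members with and without the letters thus had medians close to each other in this comparison.

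The respiratory chain genes as a group were highest in GMP, next in both pro-B groups, and lowest in pre-pro-B and pre-B cells. Their median log2 level per array was 5.18 and 5.34 in GMP, 4.24 and 4.32 in hCD4+ pre-pro-B, 3.95 and 4.01 in hCD4- pre-pro-B, 4.57 and 4.78 in hCD4+ pro-B, 4.82 and 4.91 in hCD4- pro-B, and 4.22 and 4.21 in pre-B cells. In the order GMP, hCD4- pro-B, hCD4+ pro-B, hCD4+ pre-pro-B, pre-B, hCD4- pre-pro-B, no array overlapped those of a neighbouring group. The pro-B groups lay close to each other, as did hCD4+ pre-pro-B and pre-B, with gaps smaller than the distance between the hCD4+ pro-B replicates. The order of the group means was the same under 5 other scalings, the authors' own processed table among them. By complex it did not hold throughout. Pre-B cells were above hCD4+ pre-pro-B cells in complexes II (3.46 against 3.39) and III (4.39 against 4.36). The same held in complexes IV (4.83 against 4.82) and V (5.42 against 5.31). The hCD4+ pro-B cells were above hCD4- pro-B cells in complexes II (3.88 against 3.85) and V (5.88 against 5.73).

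**Figure D1:**
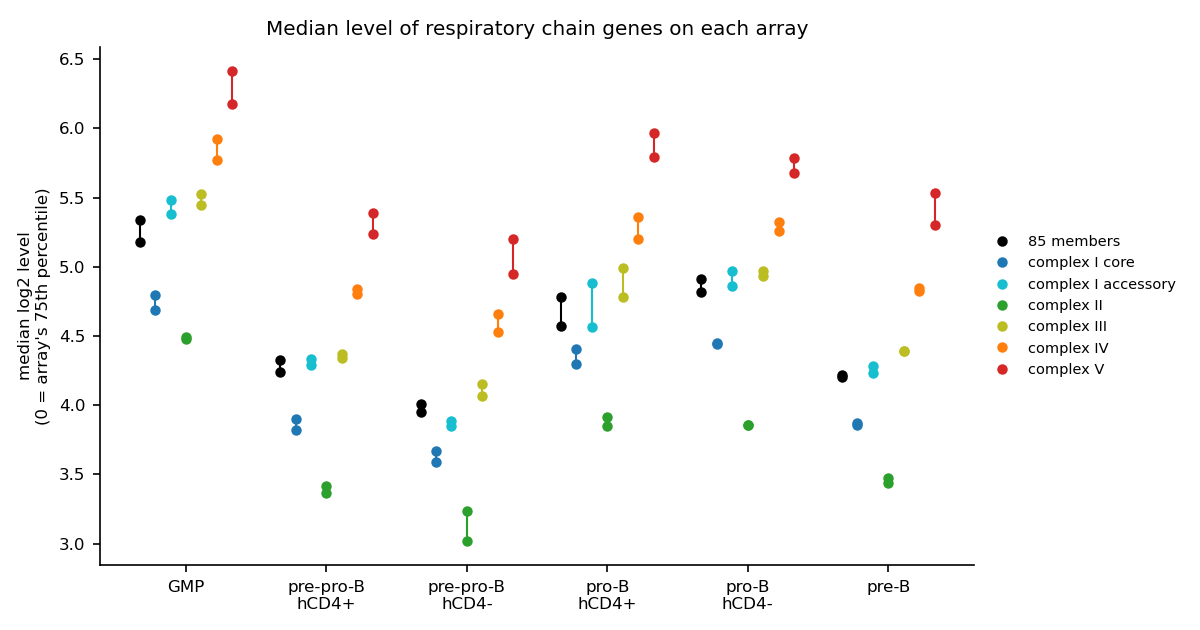
Median log2 level (vertical axis, 0 = the array's 75th percentile) of the 85 respiratory chain genes and of each complex, 1 point per array, with a line joining the 2 arrays of a group. The black points stand at 5.18 and 5.34 in GMP and at 3.95 and 4.01 in hCD4- pre-pro-B cells. The group mean of each complex is highest in GMP and lowest in hCD4- pre-pro-B cells, and the order between differs by complex. Levels of different complexes rest on different probes and are not comparable with each other.

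Gene by gene, 74 of the 85 had their highest group mean in GMP, against 26.5% of all kept genes. Among the others, the highest group was pre-B cells (for example Cox4i2, Cox7a2l and Ndufaf3; background 23.7%), hCD4+ pro-B cells (Atp5b, Atp5d and Cox4nb; 10.1%), hCD4- pro-B cells (Cox7a1, Ndufa11 and Ndufs5; 11.5%) or hCD4- pre-pro-B cells (Atp5sl; 22.2%), and for 0 genes hCD4+ pre-pro-B cells (5.98%). The lowest group mean was in hCD4- pre-pro-B cells for 57 genes (24.5% of all kept genes) and in pre-B cells for 19 (16.0%). It was in hCD4+ pre-pro-B cells for 5 (14.8%), in hCD4+ pro-B cells for Ndufa13 and Uqcrh (9.37%), in hCD4- pro-B cells for Atp5sl (10.2%) and in GMP for Cox7a2l (25.1%). Both GMP arrays lay above all 10 other arrays for 68 of the 85 genes, against 18.7% of all kept genes. A difference somewhere among the 6 groups was called for 82 of the 85 by limma's moderated F test with Benjamini-Hochberg adjustment, a share near the 82.8% of all kept genes. Ndufs8 and Ndufa6 were among those not called by it.

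**Figure D2:**
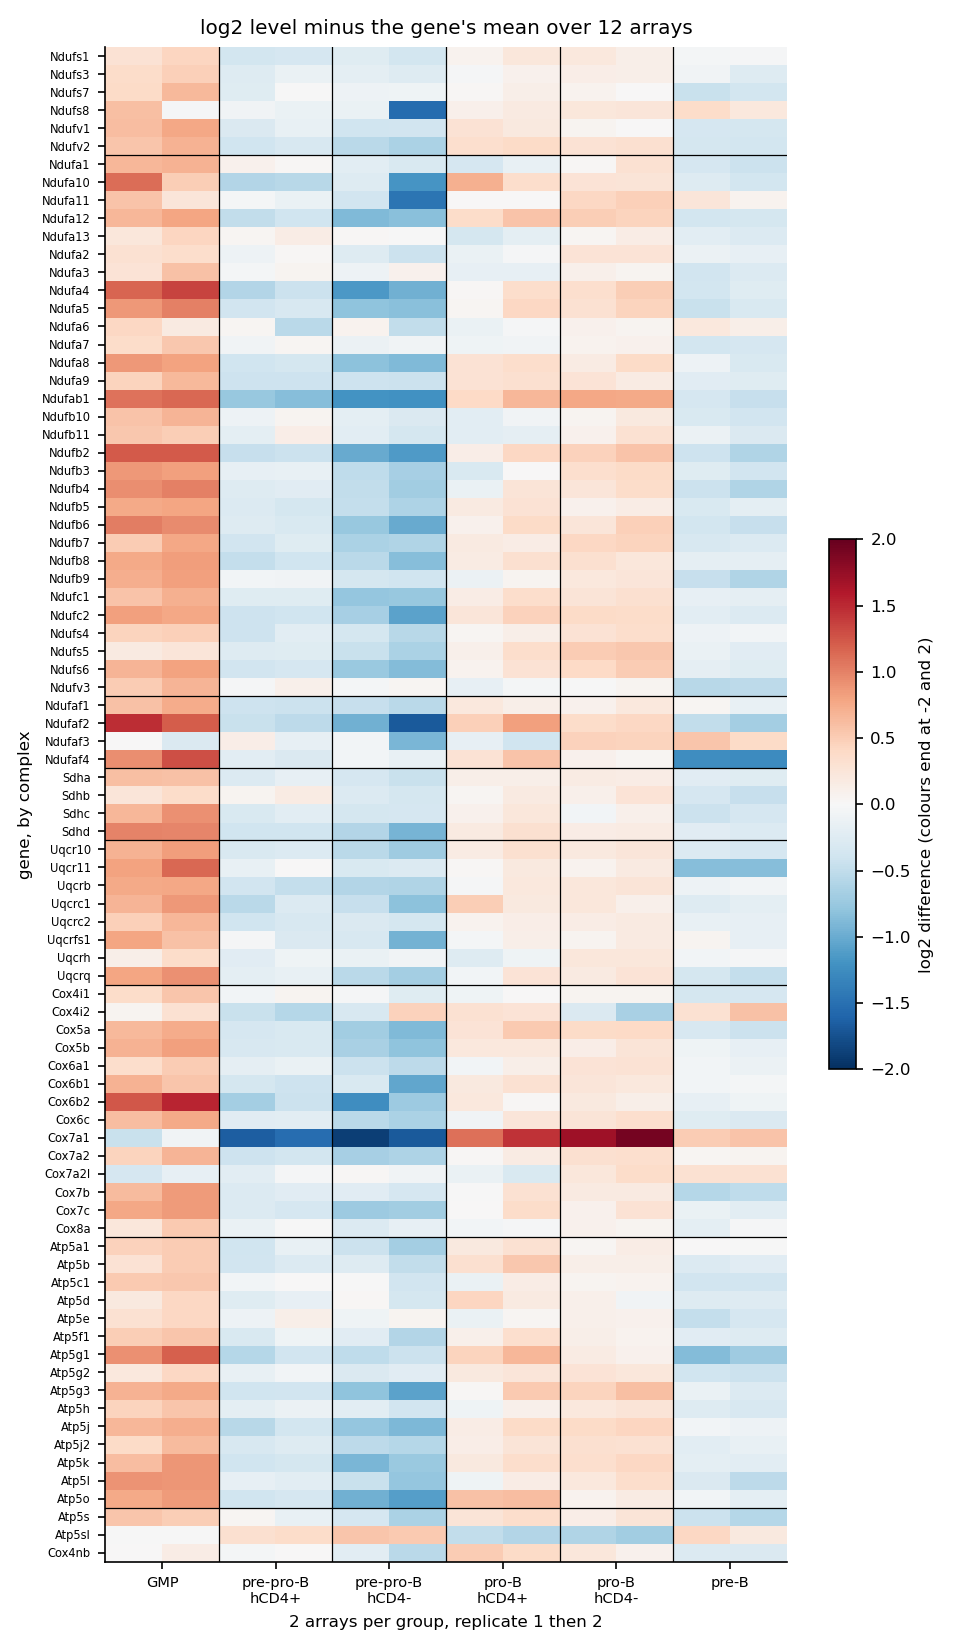
Log2 level of the respiratory chain genes, 1 of the 85 left out, on each of the 12 arrays minus the gene's mean over the arrays, with genes in rows by complex and 2 array columns per group. Red is above and blue below the gene's mean. Most rows are red in GMP and blue in hCD4- pre-pro-B cells. Cox7a1, Cox7a2l, Cox4i2 and Atp5sl are among the rows that depart from this course.

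GMP were first compared with hCD4- pre-pro-B cells on the same slide. Of the 85 genes, 79 were higher and 1 lower in GMP (limma, adjusted p under 0.05), where 65.5% of all kept genes were called and 34.7% were called higher. The median log2 change of the respiratory genes was 1.15, and that of all kept genes was -0.04. By complex, the higher calls were 6 of 7 core and 29 of 30 accessory subunits of complex I, 4 of 4 genes of complex II, 8 of 8 of complex III, 12 of 14 of complex IV and 15 of 15 of complex V. The median change ran from 0.66 in the complex I core to 1.34 in complex III. Cell cycle genes moved with these values in this pair. The 12 S and G2/M phase markers had a summed linear level of 302 to 321 in GMP and 47.9 to 60.1 in hCD4- pre-pro-B cells, and their part in the result was not tested.

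Within complex I, Ndufs1 and Ndufv1 stand for the peripheral arm that takes electrons from NADH. Ndufs1, its largest iron-sulfur subunit, had log2 levels of 3.69 and 3.83 in GMP, against 3.16 and 3.04 in hCD4- pre-pro-B cells. Ndufv1, which binds NADH and FMN, had 5.18 and 5.33 in GMP, against 4.16 and 4.18 in hCD4- pre-pro-B cells. Neither gene's GMP arrays overlapped the others, and the changes were 0.66 (SE 0.11, limma adjusted p = 8.41e-04) and 1.08 (SE 0.11, adjusted p = 3.95e-05).

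Some accessory and assembly genes moved further. Ndufab1, the mitochondrial acyl carrier protein that is also a complex I subunit (probe on chromosome 7, 129231667 to 129231726, mm9), had 0.92 and 0.98 in GMP, against -1.36 and -1.37 in hCD4- pre-pro-B cells. Its change of 2.32 (SE 0.12, limma adjusted p = 9.63e-07) is 4.98-fold. Ndufaf2, an assembly factor of complex I, had 2.36 and 2.10 in GMP, against -0.08 and -0.80 in hCD4- pre-pro-B cells, a change of 2.67 (SE 0.23, limma adjusted p = 1.76e-05).

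Ndufa4, named for complex I, counted with its accessory subunits here and since assigned to complex IV, had 5.15 and 5.34 in GMP, against 2.84 and 3.02 in hCD4- pre-pro-B cells, a 4.97-fold change (log2 2.31). In each of these genes the GMP arrays lay far above the pre-pro-B arrays.

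Complexes II and III followed the larger group. Sdha, the flavoprotein of succinate dehydrogenase, had 4.26 and 4.25 in GMP, against 3.32 and 3.22 in hCD4- pre-pro-B cells (log2 change 0.99, limma adjusted p = 3.85e-05). Sdhb, the iron-sulfur protein of the same complex, had 5.49 and 5.62 in GMP, against 4.98 and 4.90 in hCD4- pre-pro-B cells (0.62, adjusted p = 0.00194), a call that was lost with quantile normalization (0.091, adjusted p = 0.493) and cyclic loess (0.11, adjusted p = 0.365). The core protein gene Uqcrc1 rose by 1.42 (SE 0.17) and Uqcrfs1, the Rieske iron-sulfur protein, by 1.32 (SE 0.21). All 4 of these genes had higher levels on both GMP arrays than on either hCD4- pre-pro-B array.

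In complex IV, Cox5a had 6.66 and 6.74 in GMP, against 5.32 and 5.13 in hCD4- pre-pro-B cells (log2 change 1.48, limma adjusted p = 1.35e-05). Cox5b had 5.68 and 5.81 in GMP, against 4.33 and 4.17 in hCD4- pre-pro-B cells (adjusted p = 6.77e-06). The common isoform Cox4i1 rose by 0.60 (SE 0.12), and was not called with quantile normalization (0.13, adjusted p = 0.272), cyclic loess (0.021, adjusted p = 0.859), the authors' table (0.20) or only the arrays compared (adjusted p = 0.0591). In complex V, Atp5a1 rose by 1.04 (SE 0.13) and Atp5b, the catalytic subunit, by 0.78 (SE 0.13). Atp5b was not called under cyclic loess (0.18, limma adjusted p = 0.145). The single lower gene was Atp5sl, which is no ATP synthase subunit but an assembly factor of the complex I membrane arm: 3.20 and 3.21 in GMP, against 3.77 and 3.73 in hCD4- pre-pro-B cells (-0.54, SE 0.11, adjusted p = 0.00244). It was not called under array-median scaling (-0.088, adjusted p = 0.634) or with only the arrays compared (adjusted p = 0.0515).

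Different probes of a gene mostly gave changes within 1 log2 unit of each other. Of 26 genes with several kept probes, 3 had a probe further away. In this comparison a dimmer probe of Ndufb11 gave -0.74 where the brightest gave 0.80, a dimmer probe of Ndufv3 gave -0.41 where the brightest gave 0.60, and a dimmer probe of Ndufaf4 gave 2.23 where the brightest gave 1.21. Which probe reads the main transcript was not tested.

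**Figure D3:**
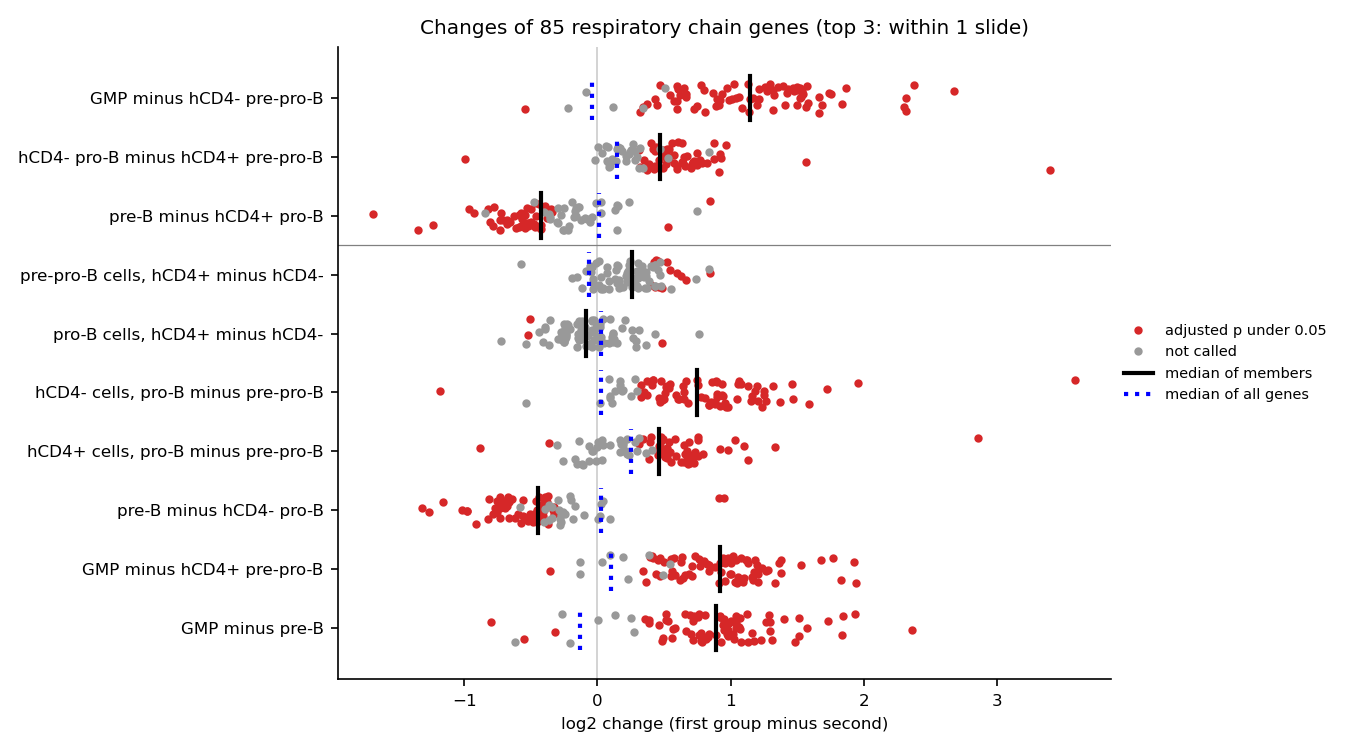
Log2 change of each of the 85 genes in 10 comparisons, first group minus second (horizontal axis), 1 point per gene. Red points had an adjusted p under 0.05, the black bar is the median of the 85 genes and the dotted blue bar the median of all kept genes. The 3 upper comparisons lie within a slide. Most points sit right of 0 in every GMP comparison and left of 0 for pre-B cells against either pro-B group.

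The other GMP comparisons crossed slides. Against hCD4+ pre-pro-B cells, 75 genes were higher and 1 lower in GMP (54.2% of all kept genes were called, 31.3% higher), with a median log2 change of 0.92 against 0.10 for all kept genes. Against pre-B cells, 75 were higher and 3 lower (65.0% called, 30.6% higher and 34.4% lower), with a median of 0.89 against -0.13. The 3 comparisons share the GMP arrays. The 12 S and G2/M phase markers summed to 302 to 321 in GMP, 207 to 209 in hCD4+ pre-pro-B and 346 in pre-B cells. They were thus higher in GMP than in hCD4+ pre-pro-B cells and lower in GMP than in pre-B cells. The part of these markers was not tested. Under quantile normalization, cyclic loess and the authors' table, Cox4i1 stood at -0.057, -0.048 and -0.15 in GMP against hCD4+ pre-pro-B cells, where the 75th-percentile scaling gave 0.47 (limma adjusted p = 0.0111), so its direction there depends on the scaling. Sdhb was not called there (0.19, adjusted p = 0.221) and stood at -0.31 under quantile normalization.

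GMP and pre-B cells differed most in Ndufaf4, an early assembly factor of complex I. Its levels were 2.17 and 2.54 in GMP and 0.00 and -0.01 in pre-B cells, a 5.13-fold change (log2 2.36, limma adjusted p = 3.28e-06). Atp5g1, one of the genes for the c subunit of the ATP synthase ring, had 6.42 and 6.71 in GMP and 4.64 and 4.81 in pre-B cells (3.58-fold). Uqcr11, a small subunit of complex III, had 5.95 and 6.29 in GMP and 4.28 in both pre-B samples (3.57-fold). The lower genes in GMP were Cox7a1 (-0.80), Cox7a2l (-0.55) and Atp5sl (-0.31). All 3 calls were lost under array-median scaling, where Cox7a1 stood at -0.35 (adjusted p = 0.0912), Cox7a2l at -0.10 (adjusted p = 0.582) and Atp5sl at 0.13.

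Pro-B cells had higher levels of the respiratory genes than pre-pro-B cells. Within a slide, hCD4- pro-B cells were compared with pre-pro-B cells positive for hCD4, a pair that differs in both stage and hCD4 status: 54 genes were higher and 1 lower (47.8% of all kept genes were called, 29.2% higher). The median change was 0.47, against 0.15 for all kept genes. Accessory subunits of complex I had 19 of 30 higher calls and a median of 0.59, complex IV 11 of 14 and complex V 11 of 15, while the complex I core had 3 of 7. The count of 55 changed genes was 28 under array-median scaling, 32 and 36 without replicate 2 and replicate 1 of hCD4- pro-B, and 35 without replicate 1 of hCD4+ pre-pro-B.

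At equal hCD4 status the comparisons crossed slides and share arrays with the one above. In hCD4- cells, 70 genes were higher and 1 lower in pro-B than in pre-pro-B cells (59.7% called, 32.7% higher; median 0.75 against 0.02 for all kept genes). In hCD4+ cells, 50 were higher and 2 lower (54.2% called, 33.1% higher and 21.1% lower), and the median of 0.46 stood against 0.25 for all kept genes. This split depends on the scaling: the counts higher and lower were 35 and 15 with quantile normalization, 27 and 15 with cyclic loess, 33 and 14 in the authors' table and 7 and 9 with array-median scaling. Without replicate 1 of hCD4+ pre-pro-B, 32 genes were called. The 12 cell cycle markers summed to 443 to 466 on hCD4- pro-B and 413 to 423 on hCD4+ pro-B arrays, against 207 to 209 on hCD4+ pre-pro-B and 47.9 to 60.1 on hCD4- pre-pro-B arrays, and their part was not tested.

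One gene far exceeded the rest in this step. Cox7a1, the isoform of complex IV subunit 7a known from heart and skeletal muscle (probe on chromosome 7, 30970337 to 30970948, mm9), had log2 levels of -2.14 and -2.02 in hCD4+ pre-pro-B, -2.38 and -2.17 in hCD4- pre-pro-B, 0.61 and 0.95 in hCD4+ pro-B, 1.21 and 1.42 in hCD4- pro-B and 0.01 and 0.09 in pre-B cells. GMP lay between the stages at -0.93 and -0.56. No array of a pro-B group overlapped an array of another stage. Within the slide, the change in hCD4- pro-B cells over hCD4+ pre-pro-B cells was 3.39 (SE 0.17, limma adjusted p = 1.56e-06, 10.5-fold). Across slides it was 3.59 in hCD4- cells and 2.86 in hCD4+ cells (7.26-fold).

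Cox7a1 fell in pre-B cells, by 0.73 against hCD4+ pro-B cells within the slide (limma adjusted p = 0.00997) and by 1.26 against hCD4- pro-B cells (adjusted p = 9.61e-04). Its range of group means, 3.59, was the widest among the 85 genes. The promoter of Cox7a1 is shown because of this range. It holds none of the 4 patterns searched, so no letter is in capitals, and it covers the 250 bases before the RefSeq start at chr7:30183921-30184170 on the plus strand of GRCm38.p6.
Cox7a1: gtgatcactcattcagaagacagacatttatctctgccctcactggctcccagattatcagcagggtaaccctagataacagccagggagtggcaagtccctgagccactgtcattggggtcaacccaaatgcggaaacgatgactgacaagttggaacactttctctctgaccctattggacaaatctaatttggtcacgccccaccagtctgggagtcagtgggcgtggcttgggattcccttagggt

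The other isoforms of subunit 7a behaved differently from Cox7a1. Cox7a2, the widely expressed isoform, had 5.21 and 5.45 in GMP, 4.36 and 4.41 in hCD4+ pre-pro-B and 4.11 and 4.15 in hCD4- pre-pro-B cells. It had 4.78 and 4.93 in hCD4+ pro-B, 5.08 and 5.10 in hCD4- pro-B and 4.80 and 4.83 in pre-B cells. Cox7a2 thus followed the larger group in GMP, pre-pro-B and pro-B cells. Its pre-B arrays lay within the range of the hCD4+ pro-B arrays and above both pre-pro-B groups, unlike the larger group. Cox7a2l, known for its part in joining complexes III and IV, spanned only 0.55 between its lowest and highest group means, and its lowest mean was in GMP (5.87 and 6.04). It was higher in pre-B cells (6.51 on both arrays) than in hCD4+ pro-B cells (6.07 and 5.90), by 0.53 (SE 0.12, limma adjusted p = 0.00962). Levels of different probes were not compared with each other.

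**Figure D4:**
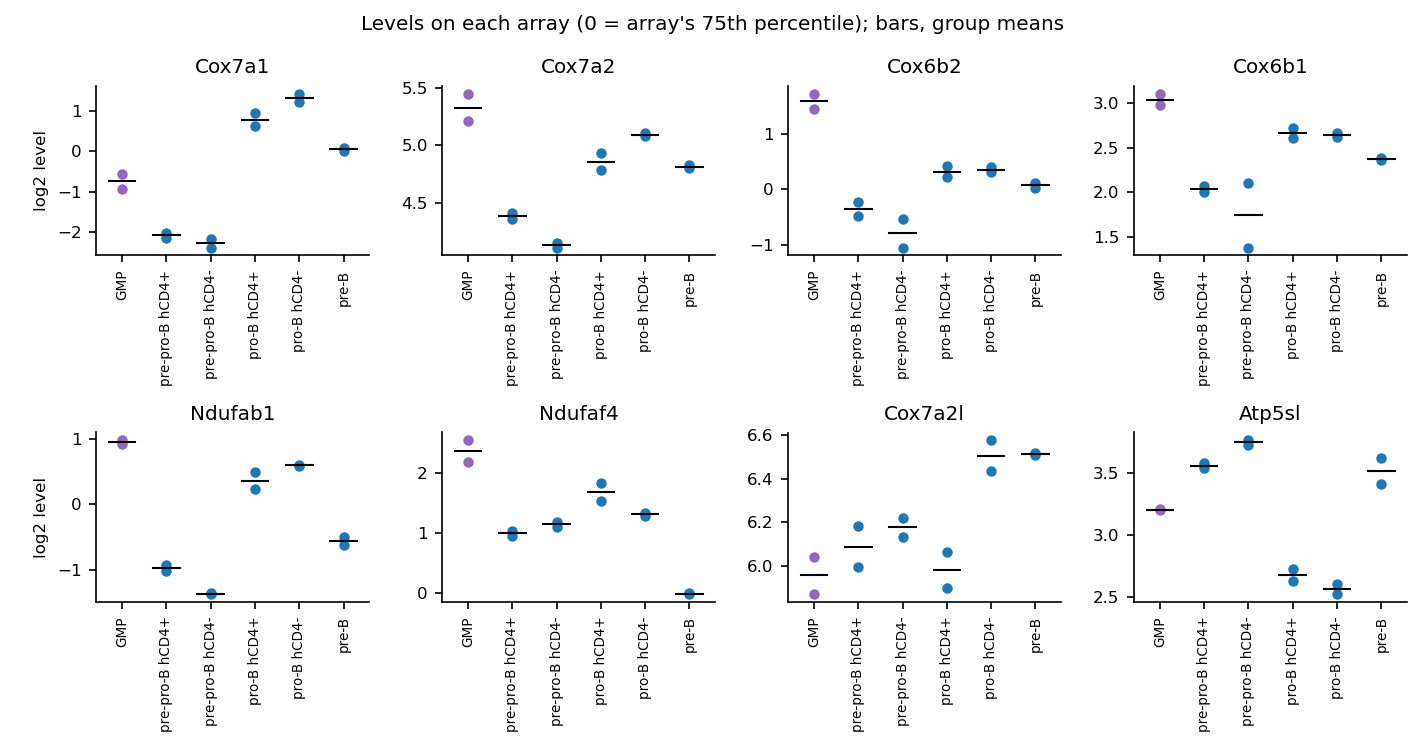
Log2 level (vertical axis, a separate range in each panel) of 8 respiratory chain genes on each of the 12 arrays, with bars at the group means and GMP in purple. Cox7a1 separates the pro-B arrays from all others, Cox6b2 separates GMP, Ndufaf4 is near 0 in pre-B cells, and Atp5sl is lowest on the pro-B arrays.

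Other genes with a marked step at the pro-B stage were Ndufab1 and Atp5sl. Ndufab1 had -0.93 and -1.02 in hCD4+ pre-pro-B, -1.36 and -1.37 in hCD4- pre-pro-B, 0.23 and 0.49 in hCD4+ pro-B and 0.60 and 0.58 in hCD4- pro-B cells, with a within-slide change of 1.57 (SE 0.12, limma adjusted p = 1.55e-05, 2.96-fold). Pre-B cells lay between, at -0.50 and -0.63. Atp5sl ran the opposite way: 3.54 and 3.58 in hCD4+ pre-pro-B, 3.77 and 3.73 in hCD4- pre-pro-B, 2.72 and 2.63 in hCD4+ pro-B, 2.61 and 2.53 in hCD4- pro-B and 3.63 and 3.42 in pre-B cells.

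Both pro-B groups of Atp5sl lay below every other array. It fell by 0.99 in hCD4- pro-B cells against hCD4+ pre-pro-B cells within the slide (limma adjusted p = 1.30e-04). In pre-B against hCD4+ pro-B cells within the slide it rose by 0.84 (adjusted p = 4.57e-04). Ndufa13, an accessory subunit of complex I, was the other gene that fell in hCD4+ pro-B cells against hCD4+ pre-pro-B cells, by 0.36 (adjusted p = 0.0311), a call lost under 6 of 24 alternatives (adjusted p up to 0.149). Its levels were 5.83 and 5.99 in hCD4+ pro-B, against 6.22 and 6.32 in hCD4+ pre-pro-B cells.

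Pre-B cells had lower levels than pro-B cells. Against hCD4+ pro-B cells on the same slide, 47 of the 85 genes were lower and 2 higher (42.9% of all kept genes were called, 24.0% lower), with a median of -0.42 against 0.01 for all kept genes. The lower calls were 18 of 30 accessory and 3 of 7 core subunits of complex I, 4 of 4 genes of complex II, 4 of 8 of complex III, 4 of 14 of complex IV and 10 of 15 of complex V. The split was 5 higher and 26 lower with cyclic loess and 6 higher and 31 lower in the authors' table. The count of 49 changed genes was 27 and 25 without replicates 1 and 2 of pre-B and 24 without replicate 2 of hCD4+ pro-B.

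Against hCD4- pro-B cells, on another slide, 58 genes were lower and 2 higher in pre-B cells (41.1% called, 19.7% higher and 21.4% lower; median -0.45 against 0.03). The count of 60 fell to 38 and 26 without replicates 1 and 2 of pre-B, and to 37 and 26 without replicates 1 and 2 of hCD4- pro-B. The hCD4- pro-B arrays also held the mature neutrophil markers named above. Cell cycle markers changed less than at the earlier step, at 346 on the pre-B arrays against 413 to 423 on hCD4+ pro-B arrays.

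The assembly factor Ndufaf4 showed the largest fall. Its levels were 0.00 and -0.01 in pre-B cells, against 1.53 and 1.82 in hCD4+ pro-B and 1.34 and 1.29 in hCD4- pro-B cells. The log2 change was -1.68 against hCD4+ pro-B cells (SE 0.15, limma adjusted p = 6.54e-05) and -1.32 against hCD4- pro-B cells (adjusted p = 3.99e-04). Atp5g1 fell by 1.35 and Uqcr11 by 0.97 against hCD4+ pro-B cells. Cox5a had 5.68 and 5.58 in pre-B cells, against 6.28 and 6.53 in hCD4+ pro-B cells, and fell by 0.77 (adjusted p = 0.00132). Pre-B samples lay below both pro-B groups in each of these 4 genes.

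Not every gene followed. Atp5a1 was not called in pre-B against either pro-B group (-0.25, adjusted p = 0.168, against hCD4+, and -0.10, adjusted p = 0.579, against hCD4-, by limma). Ndufs1 was not called either, at -0.18 and -0.19. Atp5b fell by 0.68 against hCD4+ pro-B cells (adjusted p = 0.00407) and was not called against hCD4- pro-B cells (-0.37, adjusted p = 0.0583).

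The reporter contrast was smaller. In pre-pro-B cells, 13 genes were higher and 0 lower in hCD4+ than in hCD4- cells (17.0% of all kept genes were called, 8.78% higher and 8.27% lower). The share called in either direction, 13 of 85, was thus near the background share. All of these calls were in the higher direction, and the pair crosses slides. The median was 0.26, against -0.06 for all kept genes, and 73 of 85 changes were above 0. Among the 13 were 7 genes counted as accessory complex I subunits, Ndufa4, Ndufa8, Ndufa12, Ndufb2, Ndufb6, Ndufc1 and Ndufs6. The others were Ndufaf2, Sdhb, Cox5a, Cox5b, Atp5k and Atp5o.

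Atp5o, the oligomycin-sensitivity subunit of the ATP synthase stalk, had 3.47 and 3.53 in hCD4+ pre-pro-B, against 2.90 and 2.76 in hCD4- pre-pro-B cells (log2 change 0.67, SE 0.11, limma adjusted p = 0.00572). Ndufb2 had 3.90 and 3.93 in hCD4+, against 3.35 and 3.22 in hCD4- pre-pro-B cells (0.63, SE 0.13, adjusted p = 0.0151). Ndufb6 changed by 0.60 (adjusted p = 0.0277) and Ndufaf2 by 0.85 (adjusted p = 0.0412). The call was lost under 1 of 23 alternatives for Atp5o, 5 for Ndufb2, 7 for Ndufb6 and 14 for Ndufaf2. The arrays of the groups did not overlap in these 4 genes.

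This count depended heavily on the data used. It was 0 when only the 4 arrays of the pair were fitted, 1 with array weights, 1 without either hCD4+ pre-pro-B replicate or without replicate 2 of hCD4- pre-pro-B, and 5 without any 1 array of hCD4- pro-B or pre-B. It was 26 without replicate 1 of hCD4- pre-pro-B, 46 with array-median scaling and 48 with normexp background correction. Among all called genes of this pair, 51.5% were higher, and that share was 24.5% with normexp, 68.1% with cyclic loess and 83.4% with array-median scaling. The cell cycle markers moved with the pair, at 207 to 209 in hCD4+ against 47.9 to 60.1 in hCD4- pre-pro-B cells, as did the GMP markers at 13.8 to 33.8 against 2.09 to 3.54, and neither part was tested.

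In pro-B cells, 1 gene was higher and 2 lower in hCD4+ than in hCD4- cells (20.5% of all kept genes were called, 11.6% higher and 8.86% lower), with a median of -0.08. The share of respiratory genes called was thus below the background share. Atp5o had 4.46 and 4.49 in hCD4+ pro-B, against 3.95 and 4.04 in hCD4- pro-B cells (0.49, SE 0.11, limma adjusted p = 0.0180). Cox7a2l (-0.52, adjusted p = 0.0223) and Ndufb3 (-0.51, adjusted p = 0.0286) were the lower genes. Under other scalings the counts higher and lower were 1 and 8 (quantile), 2 and 7 (cyclic loess), 1 and 12 (the authors' table) and 0 and 14 (array median). The count was 0 without replicate 1 of hCD4+ pro-B or without either hCD4- pro-B replicate, 1 without replicate 2 of hCD4+ pro-B and 7 without either hCD4- pre-pro-B replicate. GMP markers summed to 127 to 140 in hCD4+ pro-B cells and 1.17 to 1.86 in hCD4- pro-B cells.

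The difference between the contrasts was tested directly. The hCD4+ minus hCD4- change in pro-B cells minus that in pre-pro-B cells was called for 14 genes, 1 above and 13 below 0 (23.0% of all kept genes were called, 13.0% above and 10% below 0). Of the 13 below 0, 12 were genes counted as accessory subunits of complex I, whose median difference was -0.57, and the other was Cox6a1. Ndufb3, a membrane-arm subunit, had 3.70 on both hCD4+ and 3.34 and 3.20 on the hCD4- pre-pro-B arrays, and 3.56 and 3.86 on hCD4+ and 4.19 and 4.24 on hCD4- pro-B arrays (difference -0.93, SE 0.18, limma adjusted p = 0.0103). The arrays of hCD4+ cells were thus the higher ones at the pre-pro-B stage and the lower ones at the pro-B stage. The count was 3 when only the 8 arrays concerned were fitted and 59 with array-median scaling. Without replicates 1 and 2 it was 23 and 6 for hCD4- pre-pro-B, 4 and 2 for hCD4+ pre-pro-B, 5 and 1 for hCD4- pro-B and 8 and 8 for pre-B, and it was 2 without replicate 1 of hCD4+ pro-B.

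Tissue isoforms of complex IV were looked at separately. Cox6b2, the isoform of subunit 6b known from testis (probe on chromosome 7, 4703488 to 4703547, mm9), had 1.45 and 1.73 in GMP, -0.49 and -0.23 in hCD4+ pre-pro-B, -1.05 and -0.53 in hCD4- pre-pro-B, 0.42 and 0.22 in hCD4+ pro-B, 0.40 and 0.32 in hCD4- pro-B and 0.03 and 0.12 in pre-B cells. Both GMP arrays were above all others, and the within-slide change against hCD4- pre-pro-B cells was 2.38 (SE 0.19, limma adjusted p = 1.12e-05, 5.20-fold). Cox6b1, the widely expressed isoform, had 3.11 and 2.97 in GMP, against 2.11 and 1.38 in hCD4- pre-pro-B cells (1.30, adjusted p = 6.54e-04).

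Cox4i2, the isoform of subunit 4 known from lung, was dim. Its levels were -1.30 and -1.33 in hCD4+ pro-B against -1.90 and -2.26 in hCD4- pro-B cells, and -2.05 and -2.17 in hCD4+ against -1.93 and -1.15 in hCD4- pre-pro-B cells. It was not called in either contrast (0.76, limma adjusted p = 0.067, and -0.57, adjusted p = 0.155), and the difference of the contrasts was called (1.33, SE 0.36, adjusted p = 0.0314). That call was lost under 10 of 23 alternatives, with adjusted p up to 0.106. Its hCD4- pre-pro-B replicates lay further apart than those of any other group.

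Cox4i1, the common isoform, had 6.69 and 6.87 in GMP and 5.97 and 5.99 in pre-B cells. Cox8a rose by 0.60 in GMP against hCD4- pre-pro-B cells (SE 0.13), with 7.12 and 7.42 in GMP and 6.61 and 6.72 in hCD4- pre-pro-B cells.

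Transcripts of mitochondrial DNA itself were counted separately. The array held 12 such genes, 11 of them measured on all arrays. In GMP against hCD4- pre-pro-B cells within the slide, 0 were higher and 5 lower (34.7% higher and 30.8% lower among all kept genes), with a median change of -0.31, a median that stayed below 0 under 4 other scalings and was 0.14 under array-median scaling. In hCD4+ against hCD4- pre-pro-B cells 0 were higher and 6 lower (8.78% and 8.27% of all kept genes; median -0.72, below 0 under all 5 other scalings). ND4L, a complex I subunit, had 4.67 and 5.64 in GMP, 4.78 and 4.96 in hCD4+ pre-pro-B and 6.06 and 6.58 in hCD4- pre-pro-B cells. Its arrays in hCD4- pre-pro-B cells were above all others.

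The median of the nuclear genes minus that of the 11 mitochondrially encoded genes on the same array does not depend on how an array is scaled by a constant. It was -0.62 and -0.37 in GMP, -1.03 and -0.99 in hCD4+ pre-pro-B, -2.30 and -2.06 in hCD4- pre-pro-B, -0.90 and -0.89 in hCD4+ pro-B, -0.75 and -0.42 in hCD4- pro-B and -1.62 and -1.24 in pre-B cells. The hCD4- pre-pro-B arrays lay lowest and the GMP arrays overlapped those of hCD4- pro-B. The absolute value rests on the probes' own brightness, so only its change between groups is read. No p is given for this score.

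**Figure D5:**
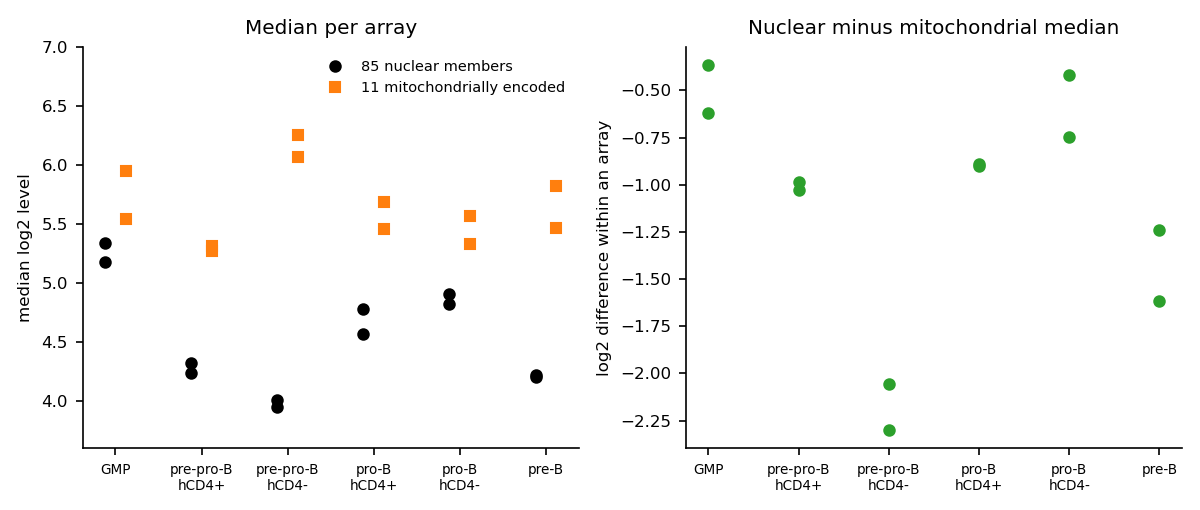
Left, median log2 level per array of the 85 nuclear respiratory genes (black circles) and of 11 mitochondrially encoded genes (orange squares). Right, the nuclear minus the mitochondrial median within each array. It is highest on a GMP array (-0.37) and lowest on an hCD4- pre-pro-B array (-2.30).

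Other nuclear genes of mitochondria were counted from lists of known function. In GMP against hCD4- pre-pro-B cells, 16 of 16 import genes were higher (median 1.43), as were 70 of 75 mitochondrial ribosomal proteins (1 lower, median 1.31), 13 of 16 genes of the TCA cycle and pyruvate dehydrogenase (median 1.23) and 14 of 20 electron carrier and further assembly genes (1 lower, median 0.85). Cycs, the electron carrier cytochrome c, had 5.92 and 5.85 in GMP, against 3.55 and 3.34 in hCD4- pre-pro-B cells (2.43, SE 0.13, limma adjusted p = 1.31e-06). The import gene Timm8a1 had 3.75 and 3.80 in GMP, against 0.53 and 0.44 in hCD4- pre-pro-B cells (9.80-fold). Both genes separated these groups without overlap.

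The same lists were read in the other within-slide pairs. In hCD4- pro-B cells against hCD4+ pre-pro-B cells, 12 of 16 import genes and 53 of 75 mitochondrial ribosomal proteins were higher and 0 lower, and 6 TCA cycle genes were higher and 1 lower. In pre-B against hCD4+ pro-B cells, 13 import genes and 42 mitochondrial ribosomal proteins were lower, and 0 and 2 were higher, while 4 TCA cycle genes were lower and 0 higher. Among all kept genes, 29.2% were called higher and 18.6% lower in the first of these pairs, and 18.8% higher and 24.0% lower in the second. The 4 of 16 TCA cycle genes lower in the second pair were thus near the background share.

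Among 11 regulators of nuclear respiratory genes, Myc varied widely. Its levels were 3.06 and 2.85 in GMP, -3.23 and -2.65 in hCD4+ pre-pro-B, -5.04 and -3.82 in hCD4- pre-pro-B, 1.86 and 2.28 in hCD4+ pro-B, 1.29 and 1.48 in hCD4- pro-B and -1.49 and -1.54 in pre-B cells. One of the hCD4- pre-pro-B arrays was not well above background for it. Nrf1, whose protein binds the pattern shown above, was not called in GMP against hCD4- pre-pro-B cells (-0.22, SE 0.11, limma adjusted p = 0.114) and rose by 0.54 in hCD4- pro-B cells against hCD4+ pre-pro-B cells within the slide (adjusted p = 0.00432). Gabpa, of the ETS class, rose by 0.61 (adjusted p = 0.00316) and by 0.57 (adjusted p = 0.00674) in the same pairs.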

How the data were processed

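RNA of sorted marrow cells was hybridised to 12 one-colour (Cy3) arrays. Per the file headers, the deposited intensity is the background-corrected processed signal of Agilent Feature Extraction 10.7.3.1 (protocol GE1_107_Sep09), with probe annotation on mm9. Log2 was taken here and each array's 75th percentile subtracted. The authors' deposited log2 table, whose normalization is not given in the sources used here, was an alternative. Its column medians were all 6.5, and its scale was read from its fit to the scanner log2 values (r 0.940 to 0.954), while its centring per array is unknown. Spots marked as outliers (2469) were set to missing and spots of a probe averaged (39429 probes). A probe was kept if, in 1 group or more, 2 of 2 arrays marked it well above background. The brightest probe stood for each of 18559 genes.

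A single limma 3.58.1 model (R 4.3.3, jsonlite 2.0.0 and data.table, version 1.17.8) held all 12 arrays in 6 groups, with 6 residual and 2.15 prior degrees of freedom, and p-values were adjusted over all kept genes, separately for each comparison (Benjamini-Hochberg). Rose, fell and called mean an adjusted p under 0.05. The number of arrays limits the precision. Same-numbered replicates were not taken as pairs: the labels do not settle it, and of 15 pairs of groups 10, not all, had deviations correlated above 0.1 (-0.007 to 0.255). The members, the other gene lists and the comparisons were chosen with earlier results of these data known. Genes are named by a rule: 11 reference subunits, the tissue isoforms, up to 4 rises and 4 falls per comparison, the 5 widest and 5 narrowest ranges, and up to 3 genes of each other list per comparison. Genes outside it (Ndufs8, Ndufb11, Ndufv3, Nrf1, Gabpa, Cox17 and those listed for a call, a group of highest or lowest level or a promoter match) were chosen after their values were seen. A few genes that the rule or the lists would name are not reported here. Promoters are RefSeq GRCm38.p6. Motif search and figures used Python 3.11.15, pandas 2.3.3 and matplotlib 3.10.9. Alternatives changed the scaling, filter, probe choice, weights, replicate block and samples fitted. The fit was tested on simulated data.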

Additional observations from a re-analysis of the deposited data

Results flagged for a closer look

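Groups of 2 arrays are too small for a test of single outlying samples. The results singled out here are those in which the hCD4+ minus hCD4- change differed between pro-B and pre-pro-B cells by a test of the difference itself (limma, Benjamini-Hochberg adjustment). There were 14 such respiratory chain genes among the 85, where 23.0% of all kept genes were called. The share of respiratory genes called in either direction was thus below the background share. Cox4i2, an isoform of complex IV, had a difference of 1.33 on the log2 scale, and its call was lost under 10 of 23 alternatives. Among the genes called, the largest differences below 0 were in accessory genes of complex I by name. They were Ndufb3 at -0.93, Ndufb2 at -0.87, Ndufa4 at -0.77 and Ndufb6 at -0.73. Differences further below 0, down to -1.28, occurred in genes that were not called. The call was lost under 16 of 23 alternatives for Ndufb6, 12 for Ndufa4, 1 for Ndufb2 and 0 for Ndufb3. The 4 groups lie on 3 slides, and the effects of slide and group on these differences cannot be told apart.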

How the results depend on the processing

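Counts of changed respiratory genes are given against those of the main setting. For hCD4+ against hCD4- pre-pro-B cells (13), they were 1 with array weights, 3 with no filter, 0 with only the arrays compared, 46 with array-median scaling, 48 with normexp and 21 in the authors' table. For the pro-B pair (3), they were 11 with array weights, 14 with array-median scaling, 9 with cyclic loess, 9 with quantile normalization, 13 in the authors' table, 0 with no filter, 7 with the replicate block, 7 with genes above background on all 12 arrays and 7 without both hCD4- pre-pro-B arrays, a setting chosen after seeing the data. For the difference of the contrasts (14), they were 59 (array median), 40 (normexp), 28 (authors' table), 23 (quantile), 25 (all 12 arrays), 3 (only the arrays compared) and 2 (no filter). For the within-slide pair of hCD4- pro-B and hCD4+ pre-pro-B (55), they were 28 (array median), 32 (cyclic loess) and 36 (quantile). For pre-B they were 32 (cyclic loess) and 39 (quantile) against hCD4- pro-B (60), and 31 (cyclic loess) against hCD4+ pro-B (49). Between pro-B and pre-pro-B cells positive for hCD4 (52), array-median scaling gave 16. The causes were not tested.

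Leaving out 1 array at a time gave 1 to 26 and 0 to 7 for the hCD4 contrasts in pre-pro-B and pro-B cells and 1 to 23 for their difference. It gave 55 to 70 for pro-B against pre-pro-B in hCD4- cells, 32 to 54 in hCD4+ cells and 32 to 59 in the within-slide pair. It gave 26 to 62 and 24 to 54 for pre-B against hCD4- and hCD4+ pro-B, 74 to 79, 64 to 78 and 70 to 79 for GMP against hCD4- pre-pro-B, hCD4+ pre-pro-B and pre-B, and 77 to 82 for the F test. A group left with 1 array is assumed to vary like the others. With the replicate block, the counts were 14, 7 and 19 for the hCD4 contrasts and their difference and moved by under 1.5 times elsewhere; whether the numbers pair the samples is not settled by the labels.

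Values called as reported or under the alternative changed sign for Cox4i1 in GMP against hCD4+ pre-pro-B (-0.057 quantile, -0.048 cyclic loess, -0.15 authors' table), Sdhb there (-0.31 quantile), Atp5sl in GMP against pre-B (0.13 array median) and Cox4i1 in hCD4- pro-B cells against those hCD4+ pre-pro-B cells (-0.30 authors' table). Of 4209 values of named genes under the alternatives, 3799 kept their side of the threshold, 364 lost and 40 gained a call, and the sign changed in 89, of which 83 were called in neither setting. Scaling moved the median of all genes by over 0.1: in GMP against hCD4- pre-pro-B it was -0.04 as reported, -0.33 with normexp and 0.41 with array-median scaling, and the respiratory median minus it was 1.19, 1.61 and 1.19, and 0.68 to 0.73 with quantile, cyclic loess and the authors' table. The share of higher calls among all genes of that pair was 53.0% as reported, 40.1% with normexp and 69.1% with array-median scaling.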

Other observations

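Further mitochondrial lists showed mixed counts. Of 11 genes of mitochondrial DNA upkeep and transcription, 7 were higher and 1 lower in GMP than in hCD4- pre-pro-B cells (median 0.83; 34.7% of all kept genes were called higher and 30.8% lower), among them Tfam, which packages mitochondrial DNA (1.28, limma adjusted p = 0.00539). In pre-B against hCD4+ pro-B cells 3 were higher and 3 lower (18.8% higher and 24.0% lower among all kept genes). Atpif1, the inhibitor of ATP synthase hydrolysis, was higher in GMP than in hCD4- pre-pro-B cells by 2.27 (SE 0.12) and in hCD4+ than in hCD4- pre-pro-B cells by 0.56 (SE 0.12, adjusted p = 0.0194).

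The coactivator gene Ppargc1b was higher in hCD4+ than in hCD4- pro-B cells (1.55, limma adjusted p = 0.00204). The respiratory genes themselves had a median change of -0.08 in that pair. Ppargc1b was well above background on 0 of 2 pre-B arrays.

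The copper chaperone gene Cox17 was well above background on both hCD4+ pro-B and both pre-B arrays, which share a slide, and on none of the other 8 arrays. Slide and group cannot be told apart for it.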
